A study of Mus musculus with 6 samples.

Results

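Transcripts of 10 core circadian clock genes were followed in mouse livers after ischemia/reperfusion (I/R) with and without ginsenoside Rk2, a saponin derived from ginseng. The genes are Arntl (also called Bmal1), Clock and Npas2, Per1, Per2, Per3 and Cry1, Nr1d1 and Nr1d2, and Dbp. They were taken by name from the 15454 rows of the count table and the 21948 rows of the FPKM table, where each occurs once, and all 10 had enough counts for the test, among 12411 genes tested. Livers came from male C57BL/6 mice aged 8 to 10 weeks and held under a 12-h light/dark cycle. Each mouse had undergone warm I/R of 75% of the liver, and per the study's methods the portal branches were clamped for 1 h and the tissue was taken after 6 h of reperfusion. The I/R group (n = 3) received vehicle and the I/R+Rk2 group (n = 3) received Rk2 in that vehicle, 2 days before surgery and again when perfusion began, at 30 mg/kg per the methods. No sham-operated liver was analysed here, so every difference below is between injured livers, and the hour of day at which tissue was collected is not given in the sources used here.

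The mammalian clock is a transcriptional feedback loop that runs in nearly every cell and is strong in hepatocytes. ARNTL pairs with CLOCK or NPAS2 on E-box elements and switches on the Per and Cry genes, whose proteins return to block that pair. A second loop joins the first, in which REV-ERB alpha and beta, the products of Nr1d1 and Nr1d2, repress Arntl and other genes through ROR elements, while RORs activate them. DBP is an output factor driven by E-boxes that acts on D-boxes, and in mouse liver Dbp and the Rev-erb transcripts peak at about the opposite time of day from Arntl and Npas2.

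Such elements can be seen in the promoters themselves. RefSeq promoter windows, which run from 250 bases before a transcription start to 50 after it (build GRCm38.p6), were found for 9 of the 10 genes, as 13 windows. Each window was searched on both strands for CACGTG (the E-box), CACGTT (an E-box variant), TTATGTAA and TTACGTAA (D-boxes), TAGGTCA (the core of the ROR element) and TGACGTCA (the cyclic AMP response element). The sites found lie in 5 genes and are shown because they are the elements through which the arms of the loop are known to act. Capitals mark the motif, and AACGTG is CACGTT read on the other strand.
Arntl, chr7:113207532-113207557, plus strand, ROR element core: ggcagaaagTAGGTCAgggacggagg
Cry1, chr10:85185099-85185124, minus strand, E-box: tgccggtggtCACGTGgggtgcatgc
Cry1, chr10:85185118-85185143, minus strand, E-box variant: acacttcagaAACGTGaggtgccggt
Per1, chr11:69098773-69098798, plus strand, E-box: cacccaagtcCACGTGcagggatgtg
Per3, chr4:151044854-151044879, minus strand, D-box: acccgcgcgTTATGTAAggtactcgg
Per3, chr4:151044807-151044832, minus strand, D-box: cgcccgcggTTATGTAAcccccgccg
Nr1d1, chr11:98775390-98775415, minus strand, E-box variant: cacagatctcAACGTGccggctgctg

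The Arntl site begins 31 bases after the start of transcription, and the others lie at positions -205 to -28 relative to it. Of all 32851 RefSeq windows, 7.15% hold the E-box, 4.68% its variant, 0.938% TTATGTAA, 0.119% TTACGTAA, 2.61% the ROR core and 1.79% the cyclic AMP response element. Neither TTACGTAA nor the cyclic AMP response element was found in a window of these genes. Clock, Npas2, Nr1d2 and Dbp have none of the searched letters in their windows. These matches describe the sequence and do not show that a factor binds there.

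Total counts ran from 16809613 to 35618074 per library. Levels are normalised counts, that is counts per 1000000 of the scaled library (CPM), and differences are log2 fold changes of I/R+Rk2 over I/R from edgeR's quasi-likelihood test with Benjamini-Hochberg adjustment over all genes tested. A gene is said to rise or fall where that adjusted p was below 0.05. Of the 10 clock genes, 7 passed, 3 higher and 4 lower, against 43.9% of all genes tested (20.3% higher and 23.7% lower). With a fold change above 2 as a further limit, 4 passed, against 14.6% of all genes. Arntl and Npas2 rose, Per3 and Dbp fell, and Per1 and Nr1d2 fell by less than 2-fold. Nr1d1 rose slightly, and Clock, Per2 and Cry1 did not pass. The groups did not overlap in 8 of the 10 genes, against 57.4% of all genes tested, and among the 8 is Cry1, where the closest livers of the groups were equal to the digits printed here. The median log2 fold change was 0.13 over the 10 genes and -0.01 over all genes, since the clock genes moved both ways.

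**Figure D1:**
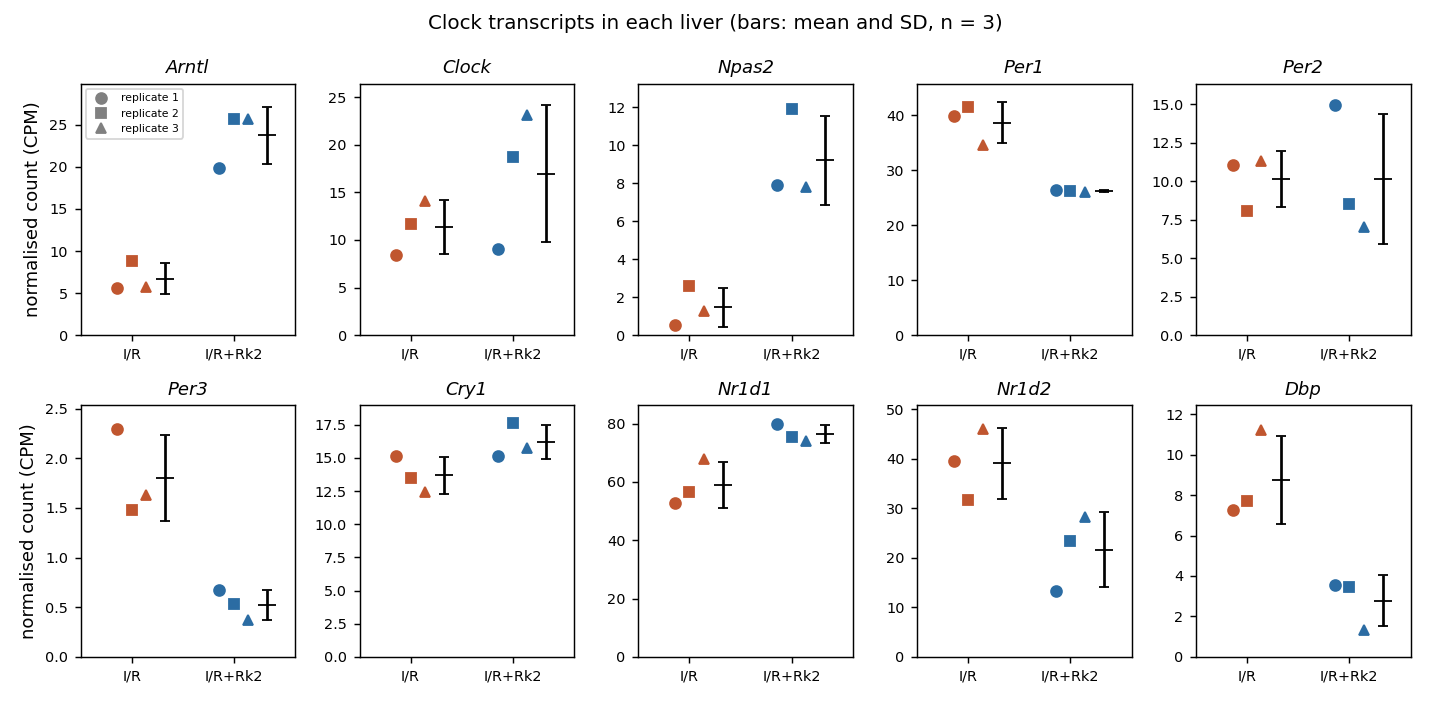
Normalised counts (CPM, y axis from 0) of the 10 clock transcripts in the 3 I/R and the 3 I/R+Rk2 livers, with a symbol per replicate and bars for the mean and SD. Arntl and Npas2 lie higher, and Per1, Per3, Nr1d2 and Dbp lower, in every I/R+Rk2 liver than in any I/R liver, while Clock and Per2 overlap.

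Gene positions are those of GENCODE M21 on mm10, the authors' build. The positive arm was led by Arntl (chr7:113207465-113314126, plus strand), the transcription factor without which the clock stops. Arntl had 5.63, 8.82 and 5.74 CPM in I/R replicates 1 to 3 and 19.9, 25.6 and 25.7 CPM in I/R+Rk2 replicates 1 to 3. The lowest I/R+Rk2 liver thus stood 2.25-fold above the highest I/R liver. The mean went from 6.73 ± 1.81 to 23.8 ± 3.35 CPM (SD, n = 3), a 3.52-fold rise or 1.81 in log2 terms (SE 0.21, adjusted p = 0.00103 by edgeR). Arntl kept its call in all 17 alternative analyses.

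Npas2 (chr1:39193731-39363236, plus strand), the paralog of Clock that can take its place beside ARNTL, had the largest change of the 10 genes in this fit. It was scarce in I/R, at 0.521, 2.58 and 1.28 CPM, and reached 7.90, 11.9 and 7.80 CPM in I/R+Rk2. Those I/R values rest on 10, 66 and 32 counts, so the I/R level is the less certain side of the comparison. The rise was 6.18-fold, or 2.63 in log2 terms (SE 0.47, 95% interval 1.53 to 3.73, adjusted p = 0.00466 by edgeR). Without I/R replicate 2, the highest of its group, the log2 fold change was 3.32, and the call held in each of the 17 alternatives.

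Clock itself (chr5:76209868-76304792, minus strand) was more variable. Its levels were 8.39, 11.6 and 14.1 CPM under vehicle and 9.08, 18.7 and 23.1 CPM under Rk2, so that I/R+Rk2 replicate 1 lay within the range of I/R. The log2 fold change of 0.57 did not pass (95% interval -0.24 to 1.38, adjusted p = 0.216 by edgeR), and an interval of that width holds both no change and a rise of more than 2-fold. Without I/R+Rk2 replicate 1 it did pass, at 0.86 (adjusted p = 0.0251 by edgeR). The deposited counts and FPKM values part ways for this gene. The ratio of count to FPKM, scaled by each library's median ratio, was 2.24 and 2.21 in replicate 1 of both groups but 3.003 to 3.94 in the other 4 livers, a spread of 1.78-fold against a median of 1.14-fold over genes. On log2(FPKM + 1) the difference was 0.14 and on log2(FPKM + 0.1) it was 0.22. Clock averaged 1.52 FPKM in I/R and 1.76 FPKM in I/R+Rk2, and at such levels adding 1 shrinks a log2 difference.

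Of the negative arm, Per1 (chr11:69095217-69109960, plus strand) was the most abundant. PER1, PER2 and PER3 are the period proteins that enter the nucleus with the cryptochromes, and Per1 also answers quickly to stress hormones. Its levels were 39.9, 41.6 and 34.5 CPM in I/R against 26.4, 26.3 and 25.98 CPM in I/R+Rk2. The treated livers were nearly identical, with an SD of 0.224 CPM against 3.69 CPM in I/R. Per1 fell 1.47-fold, by 0.56 on the log2 scale (SE 0.10, adjusted p = 0.00402 by edgeR), and kept its call in all 17 alternatives.

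Per3 (chr4:151003652-151044665, minus strand), the period gene with the lowest counts, fell 3.34-fold. Vehicle-treated livers gave 44, 38 and 41 counts and Rk2-treated ones 16, 18 and 6, or 2.29, 1.48 and 1.63 CPM against 0.672, 0.533 and 0.368 CPM. Every I/R liver was at least 2.21-fold above every I/R+Rk2 liver. The log2 fold change was -1.74 (SE 0.33, adjusted p = 0.0059 by edgeR), and it passed in the 14 alternatives whose filters retained it. This is the gene whose promoter carries a pair of D-boxes (shown above), the element that DBP, TEF and HLF read.

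Per2 (chr1:91415982-91459324, minus strand) did not follow Per1 and Per3. Its levels were 11.1, 8.04 and 11.3 CPM in I/R and 15.0, 8.53 and 7 CPM in I/R+Rk2. I/R+Rk2 replicate 1 was the highest of the 6 livers and replicate 3 the lowest. The log2 fold change was 0.01, with a 95% interval from -0.67 to 0.69 (adjusted p = 0.978 by edgeR), and its sign depended on the analysis. The spread in the treated group therefore leaves room for a moderate change either way.

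Cry1 (chr10:85131700-85185064, minus strand), a cryptochrome gene that encodes the strongest repressor of the ARNTL complex, was steady in both groups. It measured 15.2, 13.5 and 12.4 CPM in I/R and 15.2, 17.6 and 15.7 CPM in I/R+Rk2, with replicate 1 of each group at the same level. The difference of 0.24 on the log2 scale did not pass (95% interval -0.04 to 0.53, adjusted p = 0.144 by edgeR). The interval ends well below a 2-fold rise. Cry1 is the gene with both an E-box and its variant in the window.

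The pair of REV-ERB genes went opposite ways. Nr1d2 (chr14:18204054-18239127, minus strand) had 39.5, 31.7 and 46.1 CPM in I/R and 13.4, 23.4 and 28.2 CPM in I/R+Rk2. It fell 1.81-fold, by 0.86 on the log2 scale (SE 0.27, 95% interval -1.49 to -0.22, adjusted p = 0.0369 by edgeR). The call was lost without I/R replicate 1 (0.101), I/R replicate 3 (0.109) or I/R+Rk2 replicate 2 (0.0752), and with the trend on transcript length removed (0.0703), though the direction held in all 17 alternatives.

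Nr1d1 (chr11:98767932-98775333, minus strand) had 52.7, 56.6 and 67.9 CPM in I/R and 79.9, 75.6 and 74.1 CPM in I/R+Rk2, without overlap. Its log2 fold change was 0.37 (SE 0.11, 95% interval 0.11 to 0.63, adjusted p = 0.0304 by edgeR). This small rise is weakly held. It stayed past the threshold in 6 of 17 alternatives, and leaving out any single liver except I/R replicate 3 ended the call, with edgeR adjusted p-values of 0.0812 and 0.0868 once I/R replicate 1 or 2 was dropped, and of 0.0752, 0.0761 and 0.0529 once I/R+Rk2 replicate 1, 2 or 3 was. With the replicate number as a block it was 0.0557, and with library size alone 0.158.

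Nr1d1 also shares sequence with a neighbour. In GENCODE M21, 263 of its 3077 exon bases (8.55%) lie opposite exons of Thra, the thyroid hormone receptor alpha gene on the other strand, and the strand setting of the counting was not stated. Thra had 7.14, 10.8 and 9.93 CPM in I/R and 13.7, 16.2 and 12.96 CPM in I/R+Rk2, a rise of 0.62 on the log2 scale (adjusted p = 0.0273 by edgeR). That call was lost without I/R replicate 1 (0.0512), I/R replicate 3 (0.0609) or I/R+Rk2 replicate 2 (0.0948). How far reads of Thra entered the Nr1d1 counts was not tested.

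Dbp (chr7:45705088-45710203, plus strand), the gene of a PAR bZIP factor and one of the most strongly rhythmic transcripts known in liver, fell 3.06-fold. Its levels were 7.25, 7.73 and 11.2 CPM in I/R and 3.57, 3.43 and 1.35 CPM in I/R+Rk2, where I/R+Rk2 replicate 3 held 22 counts. The highest treated liver was still 2.03-fold below the lowest I/R liver. The log2 fold change was -1.62 (SE 0.35, 95% interval -2.44 to -0.79, adjusted p = 0.00963 by edgeR), and the call held in all 17 alternatives. Dbp shares 539 of 2993 exon bases (18.0%) with Sphk2 on the opposite strand. Sphk2, a sphingosine kinase gene, measured 27.0, 31.3 and 29.3 CPM in I/R and 24.9, 40.1 and 45.1 CPM in I/R+Rk2, where replicate 1 lay below every I/R liver and the others above. With a log2 difference of 0.33 it did not pass (adjusted p = 0.24 by edgeR), except without I/R+Rk2 replicate 1 (0.00971). How far reads of Sphk2 entered the Dbp counts was not tested, and the 17 alternatives do not address it.

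Since Arntl and Dbp stand on opposite sides of the daily cycle, their ratio was taken within each liver. A log2 ratio of CPM also carries the lengths of both transcripts, so only its difference between livers is read. Arntl over Dbp was -0.36, 0.19 and -0.97 under vehicle and 2.48, 2.90 and 4.25 under Rk2. The group means differed by 3.59, with SDs of 0.58 in I/R and 0.93 in I/R+Rk2. Arntl over Nr1d1 was -3.23, -2.68 and -3.56 in I/R and -2.01, -1.56 and -1.52 in I/R+Rk2, and the means differed by 1.46. Unlike Dbp, Nr1d1 was itself higher in I/R+Rk2 (log2 fold change 0.37). The difference in the ratio of Arntl to Nr1d1 therefore comes from the larger rise of Arntl (1.81) alone, and not from a fall of Nr1d1. Both ratios are descriptions of the values above and were not tested. Being taken within a library, they do not depend on the scaling.

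**Figure D2:**
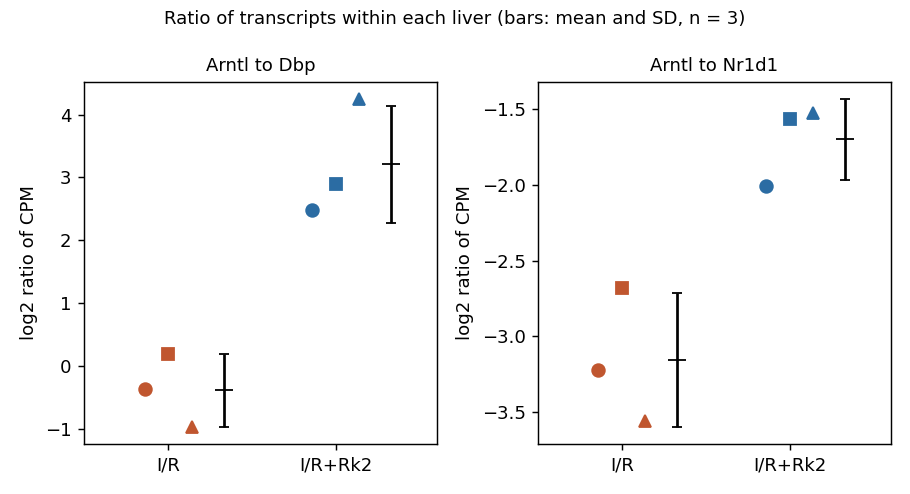
Log2 ratio of CPM of Arntl to Dbp (left) and of Arntl to Nr1d1 (right) in each liver, with bars for the mean and SD of 3 livers. The I/R livers lie between -0.97 and 0.19 for Arntl to Dbp and the I/R+Rk2 livers between 2.48 and 4.25.

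Levels of different genes can be set side by side only per length, in FPKM. In I/R, Nr1d1 led at 22.0 ± 1.82 FPKM (SD, n = 3), followed by Nr1d2 (9.14 FPKM), Per1 (8.53 FPKM), Dbp (5.52 FPKM) and Cry1 (5.03 FPKM). Arntl stood sixth at 2.85 ± 0.822 FPKM, ahead of Per2 (1.81 FPKM), Clock (1.52 FPKM), Npas2 (0.332 FPKM) and Per3 (0.301 FPKM). Neighbours whose livers overlapped in I/R were Nr1d2 and Per1, Dbp and Cry1, Arntl and Per2, Per2 and Clock, and Npas2 and Per3. In I/R+Rk2, Nr1d1 still led at 26.1 ± 1.62 FPKM, and Arntl had moved to second at 7.90 ± 0.834 FPKM, apart from Per1 (5.70 FPKM) below it. The FPKM values of Per1, Cry1 (5.38 FPKM), Nr1d2 (4.72 FPKM), Npas2 (2.50 FPKM), Dbp (1.80 FPKM), Clock (1.76 FPKM) and Per2 (1.56 FPKM) overlapped from each to the next, and Per3 (0.076 FPKM) lay apart at the bottom. Of the 2 factors that can partner ARNTL, Npas2 was below Clock in every I/R liver and above it in 2 of 3 I/R+Rk2 livers. Their FPKM ranges overlapped in I/R+Rk2, and for Clock the counts and FPKM values part ways, as given above.

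**Figure D3:**
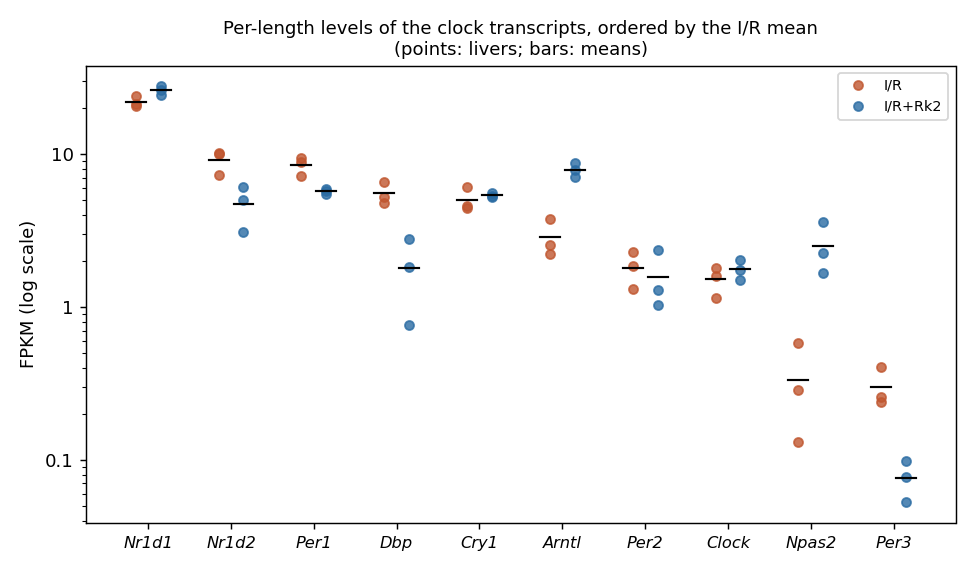
FPKM of the 10 clock transcripts (log scale) in each liver, ordered by the I/R mean, with a bar at each group mean. Arntl moves from 2.85 to 7.90 FPKM and Npas2 from 0.332 to 2.50 FPKM, while Dbp moves from 5.52 to 1.80 FPKM.

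For Npas2, Dbp, Arntl and Per1 too, the scaled ratio of count to FPKM varied between livers by more than the median gene. Its spread was 1.44-fold for Npas2, whose ratio was 1.71 to 1.72 in the I/R livers and 1.19 to 1.598 in the I/R+Rk2 livers. It was also 1.44-fold for Dbp, lowest at 0.462 in I/R+Rk2 replicate 1, 1.24-fold for Arntl, and 1.21-fold for Per1, whose ratio was 1.80 to 1.83 in I/R and 1.52 to 1.74 in I/R+Rk2. The calls of Npas2, Dbp, Arntl and Per1 held on FPKM as well.

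Among 11 other clock transcription factors that could be tested, 3 passed, against 43.9% of all genes. Tef, which like Dbp encodes a PAR bZIP factor, fell with it, from 61.0, 43.1 and 54.1 CPM to 19.9, 24.7 and 20.6 CPM (log2 fold change -1.28, adjusted p = 0.00114 by edgeR). Hlf, the other member of that family, rose instead, from 11.1, 12.6 and 12.2 CPM to 16.3, 26.9 and 21.5 CPM (log2 fold change 0.85, adjusted p = 0.01 by edgeR). Its call was lost on FPKM, where adjusted p-values ran from 0.168 to 0.248. The 3 PAR bZIP genes therefore did not move as one.

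Nfil3, which encodes a repressor at D-boxes, measured 62.5 ± 4.71 and 68.0 ± 2.96 CPM (SD, n = 3; adjusted p = 0.295 by edgeR). Bhlhe40, which encodes the E-box repressor DEC1, measured 229 ± 46.5 and 196 ± 24.4 CPM (SD, n = 3; adjusted p = 0.318 by edgeR). The median log2 fold change of the 11 genes was -0.22, and Rorb had no row in the count table.

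**Figure D4:**
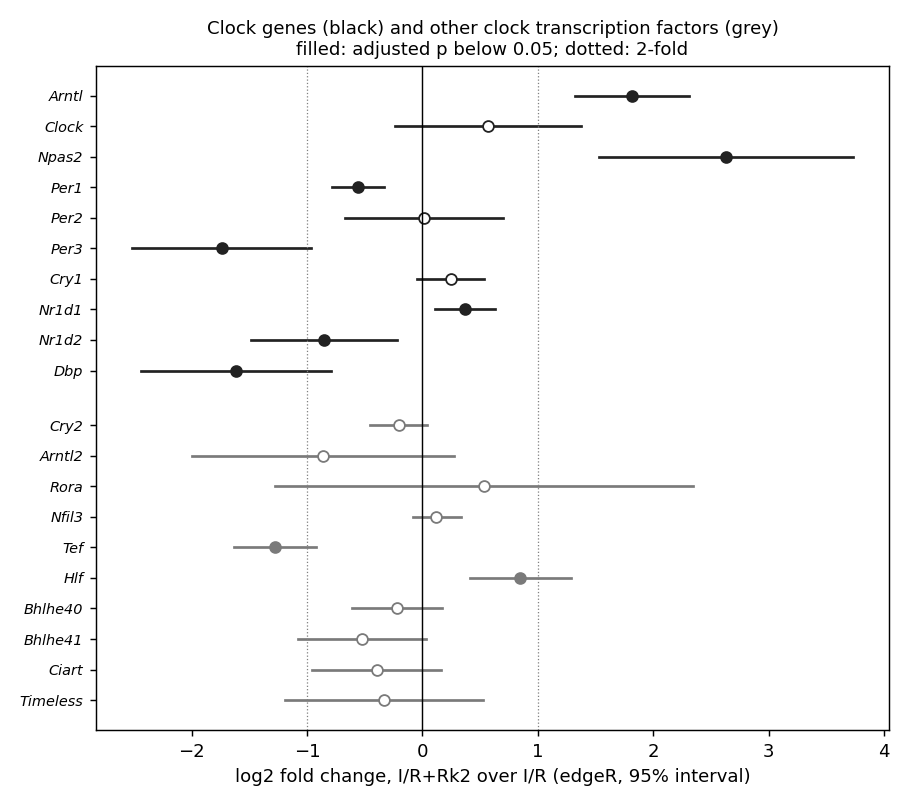
Log2 fold change of I/R+Rk2 over I/R with its 95% interval for the 10 clock genes (black) and 10 other clock transcription factors (grey), filled where the edgeR adjusted p was below 0.05 and with dotted lines at 2-fold. Arntl and Npas2 lie to the right of the 2-fold line and Per3, Dbp and Tef to the left of it.

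The machinery that modifies clock proteins changed by smaller amounts. Of 15 tested kinases and ubiquitin ligases, 9 passed, 3 higher and 6 lower, against 43.9% of all genes tested, and none by more than 2-fold, against 14.6%. Prkaa1 and Prkaa2, the alternative catalytic subunits of AMP-activated kinase, which marks cryptochromes for degradation, went opposite ways. Prkaa2 rose from 23.5 ± 1.52 to 44.5 ± 2.04 CPM (SD, n = 3; adjusted p = 0.000593 by edgeR) and Prkaa1 fell from 15.5 ± 1.36 to 9.19 ± 0.933 CPM (adjusted p = 0.0037 by edgeR). Btrc and Fbxw11 encode the paralogs of beta-TrCP, the ligase that targets the period proteins. Btrc rose (log2 fold change 0.75, adjusted p = 0.00293 by edgeR) and Fbxw11 fell (-0.74, adjusted p = 0.00267 by edgeR). On FPKM Btrc lost its call, with adjusted p-values of 0.0538 and 0.0633 from limma at pseudocounts of 1 and 0.1, and kept it without the filter on low FPKM (0.0354). The median over the 15 genes was -0.10.

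Of 14 coregulators of the clock, 7 passed and all 7 were lower, with a median of -0.46 over the 14. Among all genes tested 43.9% passed and 23.7% passed as lower. The share that passed in either direction, 7 of 14, is thus near that of other genes, while the share that passed as lower, also 7 of 14, is above it. The 4 with the smallest p were Ep300, an acetyltransferase recruited by the ARNTL complex (log2 fold change -0.88, adjusted p = 0.0025 by edgeR), Wdr5 (-0.50, 0.00273), the PER-associated RNA-binding gene Sfpq (-0.97, 0.00409) and Kmt2a, an H3K4 methyltransferase gene (-0.82, 0.00524). With the trend on transcript length removed, the falls of Ep300 (-0.53) and Kmt2a (-0.38, adjusted p = 0.0413 by edgeR) were smaller. Those of Wdr5 (-0.51) and Sfpq (-0.91) changed little. The groups did not overlap in 9 of the 14, among them these 4, against 57.4% of all genes tested.

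Genes that the clock is known to drive in liver moved both ways. Of 20, 14 passed, 7 higher and 7 lower, and 12 of them by more than 2-fold, with a median of 0.16, where 43.9% of all genes tested passed and 14.6% did so by more than 2-fold. Noct, which encodes the rhythmic phosphatase nocturnin, fell from 39.8 ± 3.94 to 16.5 ± 3.92 CPM (SD, n = 3; adjusted p = 0.00215 by edgeR). Por, the electron donor of cytochrome P450 enzymes and a target of the PAR bZIP factors, fell from 341 ± 17.2 to 110 ± 7.44 CPM (SD, n = 3; adjusted p = 0.000212 by edgeR). Mfsd2a, a lysophospholipid transporter gene, fell by 1.85 on the log2 scale (adjusted p = 0.00192 by edgeR).

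A few more outputs were chosen after their values were seen. Alas1, the rate-limiting enzyme of heme synthesis and another PAR bZIP target, fell from 590, 464 and 478 CPM to 278, 117 and 123 CPM (log2 fold change -1.56, adjusted p = 0.00949 by edgeR). Nr1i3, the gene of the xenobiotic receptor CAR and a target of the same factors, rose from 26.1, 18.2 and 24.6 CPM to 37.3, 54.9 and 47.2 CPM (log2 fold change 1.02, adjusted p = 0.00505 by edgeR). Elovl3, a fatty acid elongase gene repressed by REV-ERB alpha, rose from 164, 212 and 191 CPM to 645, 578 and 334 CPM (log2 fold change 1.46, adjusted p = 0.00353 by edgeR). Rgs16, a G-protein regulator gene, rose from 20.6, 11.6 and 30.7 CPM to 73.2, 135 and 108 CPM (log2 fold change 2.33, adjusted p = 0.00309 by edgeR).

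**Figure D5:**
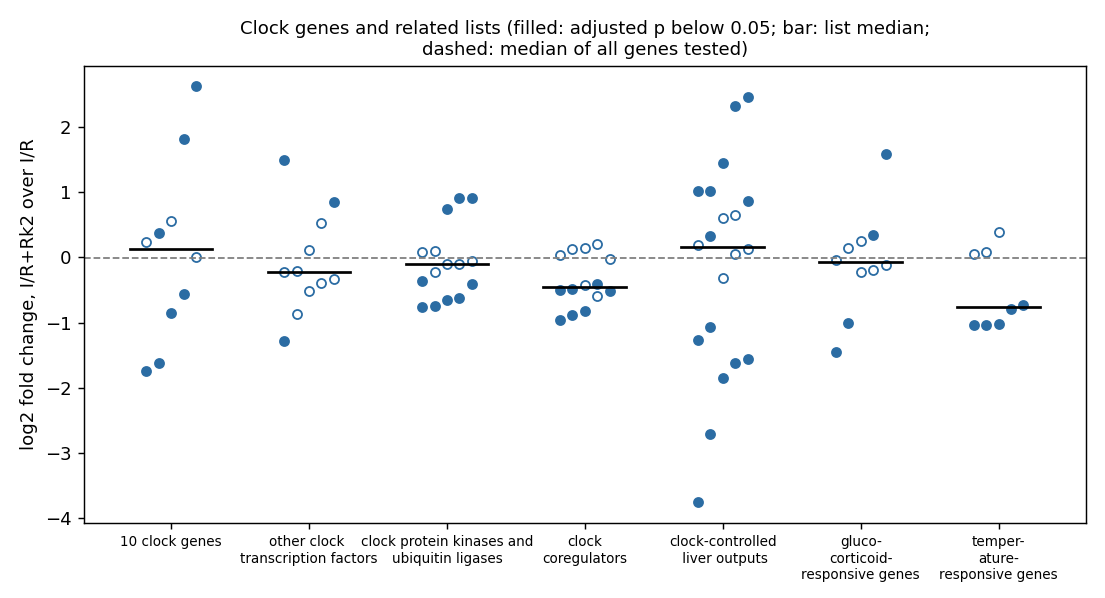
Log2 fold change of I/R+Rk2 over I/R for the 10 clock genes and the tested members of 6 related lists, filled where the edgeR adjusted p was below 0.05, with a bar at each list's median and a dashed line at the median of all genes (-0.01). The clock genes and their liver outputs spread widely to both sides, while all filled coregulators and temperature-responsive genes lie below 0.

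Glucocorticoids and body temperature are known to set the liver clock, so genes that answer to them were read beside it. These data measure neither cue, and what moved the genes of either list was not tested. Of 10 glucocorticoid-responsive genes, 4 passed, 2 higher and 2 lower (median -0.08), a share near the 43.9% of all genes tested. Fkbp5 fell from 91.9, 56.9 and 48.3 CPM to 22.5, 25.5 and 24.2 CPM (adjusted p = 0.00319 by edgeR) and Zbtb16 fell by 1.01 on the log2 scale (adjusted p = 0.0128 by edgeR). Tsc22d3 rose by 1.58 on that scale (adjusted p = 0.033 by edgeR), and Nr3c1, the receptor gene, by 0.34 (0.0337). Leaving out any single liver except I/R+Rk2 replicate 1 ended the calls of Tsc22d3 (0.0628 to 0.0916) and Nr3c1 (0.0555 to 0.109), and on FPKM Nr3c1 was lower rather than higher. The count of 4 was then 2 without I/R replicate 1, 2 or 3 or I/R+Rk2 replicate 2.

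Of 8 temperature-responsive genes, 5 passed and all 5 were lower, with a median of -0.76. Of all genes tested, 43.9% passed and 23.7% passed as lower. The heat-shock genes Hspa1a and Hspa1b, which are near-identical copies whose reads may be split, fell by 0.72 and 0.79 on the log2 scale (adjusted p = 0.00326 and 0.00392 by edgeR). Hsph1 fell by 1.03 (adjusted p = 0.00576 by edgeR). Rbm3, which is induced by cold rather than heat, also fell, from 29.1 ± 3.51 to 14.1 ± 2.68 CPM (SD, n = 3; adjusted p = 0.003 by edgeR). Cirbp, the other cold-induced gene of the list, did not pass, though it went from 5.53, 6.59 and 6.54 CPM to 9.58, 8.17 and 6.82 CPM without overlap (log2 fold change 0.40, adjusted p = 0.0855 by edgeR), and is named after its values were seen.

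The genes whose profile over the 6 livers was most like that of Arntl were Pfkfb1, Hfe2 and Dhrs3. Likeness was the root mean square difference between log2(CPM + 1) profiles, each centred on its own mean, among 11388 genes with a mean of at least 1 CPM, and it was 0.12, 0.12 and 0.14. Pfkfb1, which encodes a liver isoform of the enzyme that makes fructose 2,6-bisphosphate, had 5.94, 9.87 and 5.94 CPM in I/R and 19.3, 24.3 and 22.1 CPM in I/R+Rk2, with I/R replicate 2 the highest of its group as for Arntl. Nearest to Dbp were Cd93, Egln3 and Casp4, at 0.15, 0.16 and 0.17. Cd93, an endothelial and myeloid surface protein gene, had 45.1, 48.0 and 56.0 CPM in I/R and 25.2, 20.3 and 13.6 CPM in I/R+Rk2. Many genes differ between the groups in these data, so a like profile over 6 livers is a description.

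Markers of other cell types differed between the same groups. The summed level of 10 hepatocyte markers ran from 67500 to 77720 CPM in I/R and from 99390 to 123200 CPM in I/R+Rk2. Most of that sum was Alb. Of the 10, 5 passed as higher, 1 (Hnf4a) passed as lower and 4 did not pass, with a median log2 fold change of 0.33. Among all genes tested, 20.3% passed as higher and 23.7% as lower. All 8 monocyte markers passed as lower, with a median log2 fold change of -4.34. Their sums, 1597 to 1920 CPM in I/R and 1128 to 1184 CPM in I/R+Rk2, are mostly Fn1, which hepatocytes make as well. Fn1 fell by only 0.49 on the log2 scale. Of 8 neutrophil markers 7 passed as lower, with sums of 513 to 628 CPM against 92.6 to 214 CPM and a median of -2.20. Of 8 Kupffer cell markers 1 did, with 77.7 to 122 CPM against 63.0 to 77.6 CPM and a median of -0.55. No marker of the 4 lists was at 0 in all libraries. In whole liver, fewer cells of a type and less RNA per cell cannot be told apart, and the part of these markers' cells in the clock differences was not tested.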

How the data were processed

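Liver RNA from 6 mice (250 ng each) was made into libraries with an MGI kit. Per the labels and methods, the authors aligned reads to mm10 with HISAT2 2.2.1 and assembled expression with StringTie 1.3.3. The authors deposited whole-number counts per gene, which are not normalised, and FPKM, in which fragments are divided by transcript length and by library size. The counting step, its strand setting and the annotation used are not given in the sources used here. Among the names with counts, 21 are dates and 2 are repeats.

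Genes were kept by filterByExpr, scaled by TMM and tested with edgeR 4.0.16 (R 4.3.3), as I/R+Rk2 against I/R without covariates. P-values were adjusted over all genes. Standard errors are the absolute log2 fold change over the square root of F. Errors are SDs of 3 livers. The edgeR p-values set the group difference against the variation between livers, estimated with information shared over genes. A count of 3, the limit that a count of 0 allows, equals 0.0888 to 0.184 CPM and covers counting error only. No pair of libraries of the same group agreed within sampling noise (chi-square per degree of freedom 31.4 to 74.8). The fit was tested on simulated data.

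The 10 members and the lists were chosen with earlier results of these data known. From each other list, up to 4 passing genes with the smallest p are named, and the 3 genes nearest in profile to Arntl and Dbp. Up to 2 genes that did not pass, those with the highest CPM, were named by rule for the other clock transcription factors alone. A pair of list genes that the rule names is not reported here. Alternatives were other scalings (RLE, upper-quartile, library size alone), other filters (none, or at least 10 counts in every library), DESeq2 1.42.0, limma 3.58.1 on log2(FPKM + 1) and log2(FPKM + 0.1) among genes whose mean reached 1 FPKM, or without that filter, a replicate block, removal of each library's trend on transcript length (GENCODE M21, 15184 of 15454 genes matched), and leaving out each library. Promoter sequences and positions came from RefSeq (GRCm38.p6) and exons from GENCODE M21.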

Additional observations from a re-analysis of the deposited data

How the results depend on the processing

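Of 167 alternative values for the 10 clock genes, 143 kept their direction and side of the threshold, 15 lost the call (11 for Nr1d1 and 4 for Nr1d2), 1 gained it (Clock) and 8 changed sign, all of Per2. The count of clock genes past the threshold was 7 and ran from 5 to 7. Arntl, Npas2, Per1 and Dbp passed in all 17 alternatives and Per3 in the 14 that tested it. Per2 had log2 fold changes of -0.14 with library size alone, -0.006 with at least 10 counts in every library, -0.15 on log2(FPKM + 1) with and without the filter, -0.25 on log2(FPKM + 0.1), -0.043 with the replicate block, and between -0.38 (I/R+Rk2 replicate 1 left out) and 0.22 (I/R+Rk2 replicate 3 left out) over the omissions of 1 liver, being also negative, at -0.13, once I/R replicate 2 was dropped. Nfil3 was at -0.036 with library size alone and at -0.035 (log2(FPKM + 1), with and without the filter) and -0.036 (log2(FPKM + 0.1)), and Nr3c1 at -0.33 (log2(FPKM + 1), with and without the filter) and -0.37 (log2(FPKM + 0.1)), where it passed as lower. The cause was not tested. Other clock transcription factors past the threshold numbered 5 with library size alone in place of 3, a scaling that moved the median of all genes to -0.17. Glucocorticoid-responsive genes past it ran from 2 to 4 when a liver was left out and were 2 with the replicate block.

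Same-numbered livers did not deviate together (correlations of -0.06, 0.01 and -0.06 over genes), and nothing in the labels says that a number marks a shared batch, so the replicate number was not treated as a pairing. With the replicate block 4713 genes passed in place of 5454, and among the clock genes the block ended only the call of Nr1d1 (adjusted p = 0.0557 in edgeR). DESeq2 called 5405 genes. Depth limits Npas2 and Per3 most, with as few as 10 and 6 counts in a library.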
